A study of Arabidopsis thaliana with 12 samples.

Results

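The genes described here are 5 nuclear genes for plastid functions outside photosynthesis, measured in roots of Arabidopsis thaliana. They were Cpn60beta3 (AT5G56500), SECE1 (AT4G14870), FZL (AT1G03160), LrgB (AT1G32080) and CUTA (AT2G33740). Each was found through the one array probe that the platform annotation pairs with that locus alone, so they make up 5 of 692 single-gene probes and of 3439 probes in all. They were selected on earlier values of the comparison between aap3 and WT in these samples, so their differences between genotypes are given as a description, with no test.

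Total RNA of roots was profiled on an expression array in 6 wild-type (WT) samples and 6 samples of the aap3 mutant, which lacks the amino acid permease AAP3. Both genotypes are of ecotype Wassilevskija, and replicate numbers run from 1 to 6 in each. The sources used here do not give the allele, plant age, growth conditions or number of plants behind a sample. The p-values therefore reflect the spread between samples alone, and that spread may be technical. In whole roots, fewer cells of a type and less RNA per cell cannot be told apart.

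Plastids of roots are typically not green. They house amino acid, fatty acid and starch metabolism and nitrite reduction, and they import nearly all their proteins from the cytosol. The chaperonin Cpn60 is a barrel of alpha and beta subunits that folds imported and plastid-made proteins, best known for Rubisco. SecE is a small membrane subunit of the Sec translocon, the channel that, with SCY1 and the SecA motor, moves proteins into or across the thylakoid membrane. FZL is a membrane-bound GTPase of the dynamin superfamily that shapes thylakoids. LrgB, also called PLGG1, exchanges glycolate and glycerate across the envelope in photorespiration, and CUTA is the plastid relative of a bacterial protein for tolerance of divalent metals that binds copper.

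Cpn60beta3, LrgB and CUTA were higher in aap3 than in WT in all 6 replicate pairs, by 1.23-, 1.26- and 1.22-fold after normalization. FZL was lower in aap3 in all 6 pairs, but its level differed more between replicates than between genotypes. SECE1 was nearly level, with a mean difference just above 0 whose size, and whose number of pairs in each direction, depended on how the samples were scaled. All 5 probes lay above the detection floor, set at 0.200 times the sample median, in all 12 samples. Levels of different genes are not compared, since probes differ in brightness.

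The chaperonin subunit Cpn60beta3 had a deposited intensity, linear on an unstated scale, of 0.421 at the lowest, 0.458 at the median and 0.527 at the highest in WT. In aap3 these values were 0.498, 0.535 and 0.598. The groups overlapped in deposited intensity, since WT replicate 2 lay above aap3 replicates 5 and 6 and level with aap3 replicate 3. The means were 0.465 ± 0.035 in WT and 0.544 ± 0.042 in aap3 (SD, n = 6). After quantile normalization the log2 difference was 0.30 ± 0.08 (SE of the limma fit). By pair it was 0.45, 0.25, 0.42, 0.30, 0.20 and 0.17 for replicates 1 to 6, so it was smallest in replicates 5 and 6. The highest aap3 values, 0.590 and 0.598, belonged to replicates 1 and 2.

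Another plastid chaperonin subunit had a single-gene probe, Cpn60beta4 (AT1G26230), known for folding a subunit of the plastid NADH dehydrogenase-like complex. Its deposited intensity ran from 0.345 to 0.445 in WT and from 0.237 to 0.472 in aap3. The aap3 values lay on both sides of the WT values, and the log2 difference was -0.01 ± 0.14 (limma adjusted p = 0.982), with 3 pairs in each direction. A test of the difference between the beta3 and beta4 subunits was not made, and whether the Cpn60beta3 probe also reads closely related beta subunits was not tested.

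SECE1 had deposited intensities of 0.563, 0.613 and 0.706 (lowest, median and highest) in WT and of 0.554, 0.651 and 0.671 in aap3. The groups overlapped over nearly their whole range. Deposited values were higher in aap3 in 3 pairs and lower in the other 3, while after quantile normalization the aap3 sample was higher in all 6. That log2 difference was 0.11 ± 0.08 (SE), with pair values from 0.01 in replicate 3 to 0.19 in replicate 6. It was 0.022 in deposited values without further scaling, where the highest value of every sample lay just under 100. In those values the median intensity was lower in aap3 than in WT within each pair. The 20 probes nearest by probe number had a median log2 difference of 0.13, close to that of SECE1 itself, and after subtraction of their deviations the difference was 0.012.

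A probe for a second SecE-type gene, AT4G38490, went with the replicate number in both genotypes in replicates 1 to 4. It was listed at 0 in replicates 1 and 3 of both WT and aap3. In replicate 2 its deposited intensity was 0.907 in WT and 1.09 in aap3, and in replicate 4 it was 0.580 and 0.729. Replicates 5 and 6 lay between and did not share an order, at 0.170 and 0.088 in WT and at 0.058 and 0.441 in aap3. The probe was above the floor in 6 of 12 samples, and its log2 difference of 0.37 ± 0.78 had an adjusted p of 0.88 in limma. Without replicate 6 that difference was 0.0038.

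**Figure D1:**
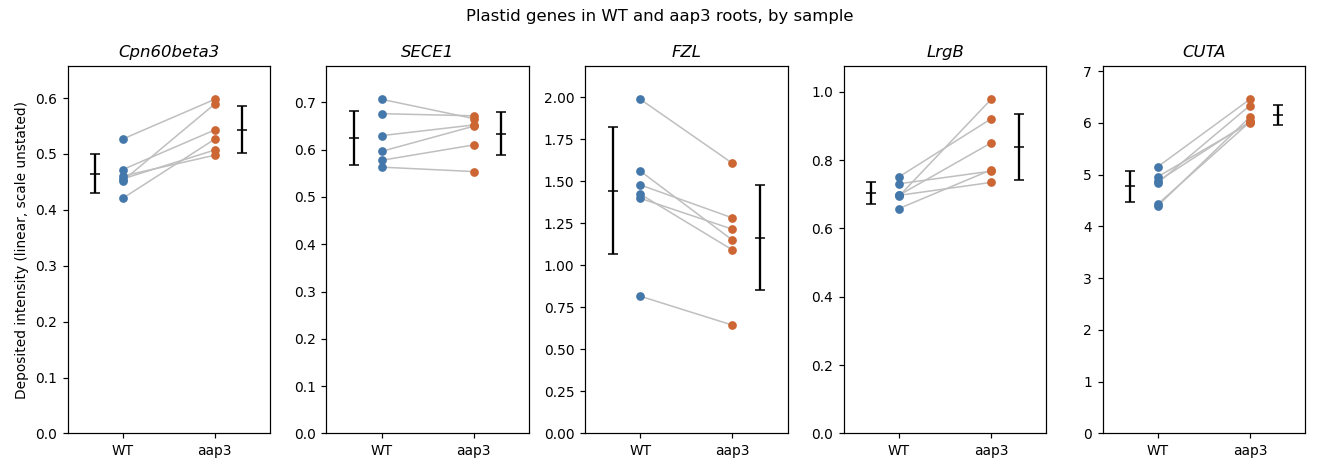
Deposited intensity (linear axes from 0) of the 5 genes in 6 WT and 6 aap3 samples; grey lines join samples of the same replicate number, and black bars show mean and SD (n = 6). The groups are apart for CUTA, overlap at the edge for Cpn60beta3 and LrgB, and overlap widely for SECE1 and FZL, though every FZL line slopes down from WT to aap3.

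FZL, the thylakoid-shaping GTPase, had deposited intensities of 0.816, 1.45 and 1.99 (lowest, median and highest) in WT and of 0.645, 1.18 and 1.61 in aap3. In both genotypes replicate 3 was the lowest sample and replicate 4 the highest. Replicate 4 exceeded replicate 3 by 2.44-fold in WT and by 2.49-fold in aap3, while the other 4 replicates lay between 1.40 and 1.56 in WT and between 1.09 and 1.28 in aap3. The spread between replicates was therefore shared by the genotypes.

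Within pairs FZL was lower in aap3 each time, with ratios of the deposited values of 0.869, 0.867, 0.789, 0.809, 0.737 and 0.767 for replicates 1 to 6. The log2 difference after normalization was -0.22, with an SE of 0.23 in a fit that ignores the pairs. The SD was 0.44 over the WT samples and 0.43 over the aap3 samples, against 0.10 over the 6 pair differences. Over all 3257 fitted probes the median SD was 0.21 in each group and 0.18 for pair differences, so the narrowing by pairs was larger in FZL than in the typical probe. Its gap to the next sample in replicate 3 was wider than its gap between genotypes in any pair.

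**Figure D2:**
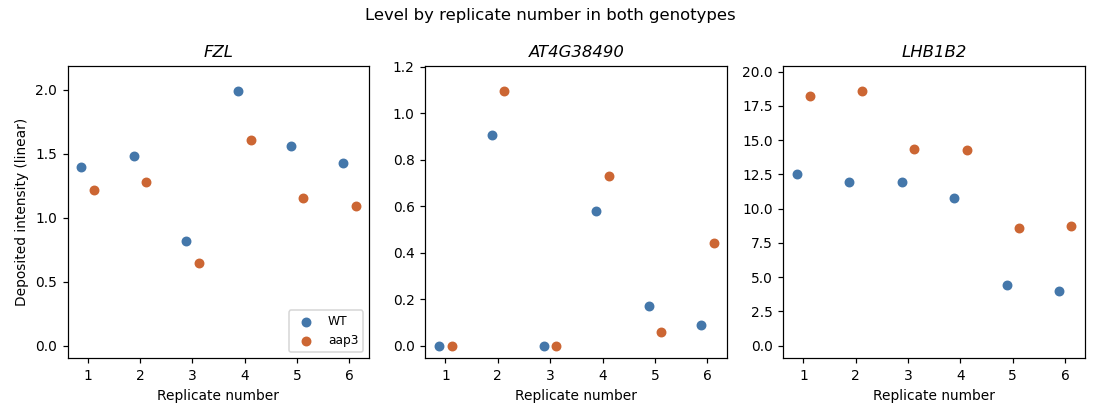
Deposited intensity (linear) against replicate number for FZL, the SecE-type gene AT4G38490 and the light-harvesting gene LHB1B2, with WT in blue and aap3 in orange. FZL is lowest in replicate 3 and highest in replicate 4 in both genotypes, AT4G38490 is at 0 in replicates 1 and 3 of both, and LHB1B2 is lowest in replicates 5 and 6 of both.

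LrgB, the glycolate and glycerate transporter, had deposited intensities of 0.658, 0.697 and 0.751 (lowest, median and highest) in WT. In aap3 they were 0.735, 0.811 and 0.978. Only aap3 replicate 4 lay below the highest WT sample, and after normalization the groups did not overlap. The aap3 samples were more spread than the WT samples, with an SD of 0.097 around a mean of 0.837, against 0.032 around 0.705 (n = 6). The log2 difference was 0.33 ± 0.08 (SE). It differed by couple of replicates, averaging 0.48 in replicates 1 and 2, 0.18 in replicates 3 and 4 and 0.32 in replicates 5 and 6. After the deviations of nearby probes were subtracted it was 0.21, a value lower by more than 1.5 times.

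The other envelope transporter measured was AT5G17630, the translocator of xylulose 5-phosphate, and it lay the other way. Its deposited intensity ran from 0.821 to 1.02 in WT, with a median of 0.843, and from 0.592 to 0.732 in aap3, with a median of 0.695. The groups did not overlap, but the share of all probes with this order was not counted. In 6 of 6 pairs aap3 was lower, as were 21.7% of fitted probes in deposited values and 12.5% after normalization. The log2 difference of -0.27 ± 0.09 did not pass in limma without the pairs (adjusted p = 0.103). With the replicate number as a block it passed, at -0.27 ± 0.06 (limma adjusted p = 0.0151). That fit counts each pair as independent, and with each couple of replicates averaged it did not pass (limma adjusted p = 0.628).

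CUTA had deposited intensities of 4.40, 4.86 and 5.15 (lowest, median and highest) in WT and of 6.0, 6.07 and 6.45 in aap3. The groups did not overlap in deposited or in normalized values. The ratio of aap3 to WT within a pair ran from 1.21 in replicate 2 to 1.39 in replicate 5. The size of this difference depended on the scaling: the log2 value was 0.29 ± 0.07 after quantile normalization, 0.37 ± 0.06 in values without scaling and 0.44 ± 0.06 after division by the sample median alone. After quantile normalization it averaged 0.42 in replicates 5 and 6 and 0.18 in replicates 3 and 4.

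CCS (AT1G12520), the copper chaperone of superoxide dismutase, was the other gene of plastid copper handling with a single-gene probe. It was above the floor in 9 of 12 samples, with deposited intensities of 0.091 to 0.163 in WT and 0.078 to 0.172 in aap3. The WT range lay within the aap3 range, and the log2 difference was -0.04 ± 0.15 (limma adjusted p = 0.944).

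**Figure D3:**
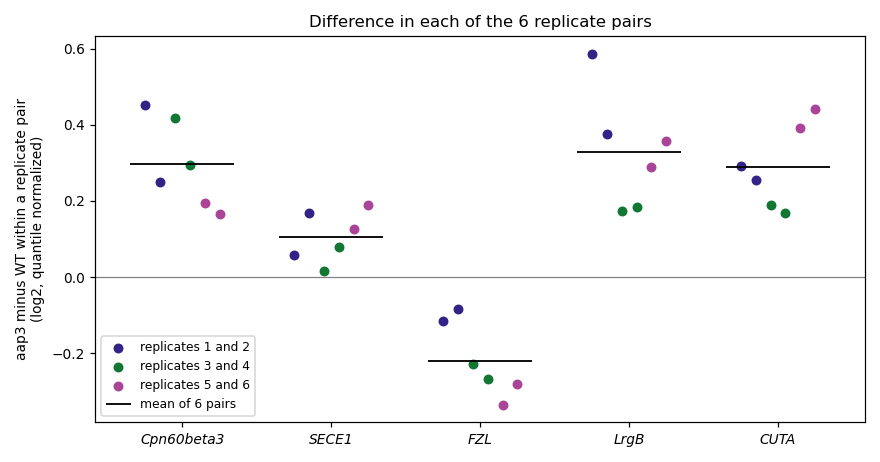
Log2 difference between aap3 and WT in each of the 6 replicate pairs for the 5 genes, after quantile normalization, with colours for replicates 1 and 2, 3 and 4, and 5 and 6 and a black line at the mean. Differences of Cpn60beta3, LrgB and CUTA are all above 0.16, those of SECE1 lie between 0.01 and 0.19, and those of FZL are all below 0.

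The pairs and couples show which part of the spread the genotypes share. The SD of pair differences was 0.07 for SECE1, below the SD of 0.12 over WT and 0.11 over aap3 samples. For Cpn60beta3 it was 0.12, against 0.12 and 0.11. The SE of its difference was 0.077 in the fit without the pairs and 0.056 with the replicate block, so the genotypes shared part of its spread too. Neighbouring replicate numbers were also alike across the array: pair differences correlated across probes at 0.54 to 0.65 inside the couples (1 with 2, 3 with 4, 5 with 6), against 0.32 to 0.35 from one couple to another. The couples were noticed in these data and are not stated in the labels. After quantile normalization the high and low couples were not the same for each gene. The difference was lowest in replicates 5 and 6 for Cpn60beta3 and, in size, in replicates 1 and 2 for FZL. It was lowest in replicates 3 and 4 for LrgB, CUTA and SECE1. For CUTA this depended on the scaling, since its deposited ratios were 1.25 and 1.21 in replicates 1 and 2 and 1.24 and 1.31 in replicates 3 and 4.

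Across all probes, limma without the pairs called 142 of 3257 probes at an adjusted p of 0.05 (4.36%). Of these, 74 were higher (2.27% of probes) and 68 lower (2.09%) in aap3. Of the 5 genes, Cpn60beta3, LrgB and CUTA were among the calls, which is how they came to be chosen, so nothing is read from that count. The fit that takes replicate numbers as a block called 665 probes (20.4%), with 10.3% of probes higher and 10.2% lower. FZL was among the calls of this fit, on the lower side, but not when the block was taken as random (767 calls, 23.5% of probes), and nothing is read from these counts either. With each couple averaged to 1 value per group, limma called 0 of 3257 probes (266 at an unadjusted p under 0.05) and none of the 5 genes. On leaving out any of the 6 replicate numbers in both groups, none of the 5 genes was called, with 47 to 67 calls in all (1.45% to 2.06% of probes). Their log2 differences then stayed within 0.26 to 0.32 for Cpn60beta3, 0.28 to 0.36 for LrgB and 0.26 to 0.31 for CUTA.

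By direction in pairs, 4 of the 5 genes were higher in aap3 in all 6 pairs after normalization, as were 12.7% of all fitted probes, and FZL was lower in all 6, as were 12.5%. In deposited values 3 of the 5 were higher in all pairs, against 7.55% of probes, and FZL was lower, as were 21.7%. After normalization the groups did not overlap, with aap3 above WT, for Cpn60beta3, LrgB and CUTA and for 2.24% of probes. In deposited values this held for CUTA alone of the 5 and for 1.6% of probes. The median log2 difference over all fitted probes was -0.0023 and the median absolute difference 0.12.

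**Figure D4:**
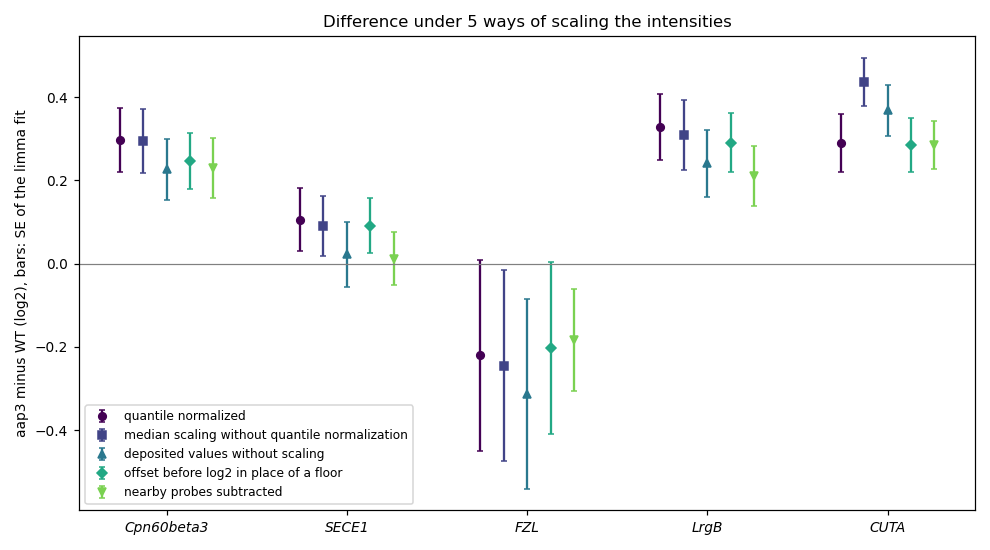
Log2 difference between aap3 and WT (6 samples each, bars are the SE of the limma fit) for the 5 genes under 5 ways of treating the intensities. Cpn60beta3, LrgB and CUTA stay above 0 throughout, CUTA ranges from 0.28 to 0.44, SECE1 comes down to 0.012, and FZL stays below 0 with wide bars.

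Genes with known roles beside these 5 were sparsely measured. Of 94 loci in 7 lists (plastid chaperonins and heat shock proteins, Sec, SRP, ALB and Tat translocation, TOC and TIC import, fusion and division, envelope transporters, copper handling and photorespiration), 9 had a single-gene probe: the 5 genes, Cpn60beta4, AT4G38490, AT5G17630 and CCS. No gene of TOC and TIC import or of photorespiration had one. The chloroplastic lipocalin CHL (AT3G47860), a protein of the thylakoid lumen that protects membrane lipids, was added because its annotated name holds the word. Its deposited intensity ran from 0.163 to 0.332 in WT and from 0.132 to 0.262 in aap3, with a log2 difference of -0.21 ± 0.20 (limma adjusted p = 0.693). Of the 5 measured genes other than those chosen, 0 were called in either direction in limma, and their median log2 difference was -0.04. With the replicate block 1 of these 5 was called, AT5G17630, beside the 20.4% of all probes called in that fit.

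None of 13 root marker genes and 1 of 12 green leaf marker genes had a single-gene probe, so the root label was not checked by root markers. The leaf marker LHB1B2 (AT2G34420), a light-harvesting chlorophyll-binding protein, was above the floor in all 12 samples. Its deposited intensity ran from 4.02 to 12.5 in WT, with a median of 11.4, and from 8.58 to 18.6 in aap3, with a median of 14.3. Sample medians over all probes ran from 0.476 to 0.536, so the LHB1B2 probe was far brighter than the typical probe in all 12 samples. Probes differ in brightness, so no amount of RNA is read from this. LHB1B2 was higher in aap3 in 6 of 6 pairs, as were 12.7% of fitted probes after normalization, by 0.63 ± 0.30 on the log2 scale. The limma adjusted p was 0.309, 0.0152 with the replicate block and 0.767 with couples averaged. In both genotypes replicates 5 and 6 were its lowest samples. It lay in the same direction as Cpn60beta3, LrgB and CUTA, and its part in their differences was not tested.

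Likeness between probes was measured as Pearson's r of normalized log2 values over the 12 samples, among 564 other single-gene probes above the floor in all samples. The samples share pairs, couples and the genotype difference, so r is a description only. LrgB was most like AT4G27390 (r = 0.93) and AT5G33390 (r = 0.89), and CUTA was most like AT4G27390 (r = 0.90) and LrgB (r = 0.87). The deposited intensity of AT4G27390 was 1.53 ± 0.06 for WT and 1.80 ± 0.15 for aap3 (SD, n = 6), and like LrgB it was highest in aap3 replicates 1 and 2. AT4G27390 and AT5G33390 were both called higher in aap3 (limma adjusted p = 0.0186 and 0.0103), as were 2.27% of fitted probes. Cpn60beta3 was most like AT1G72640 and AT1G21500 (r = 0.87 for each), both higher in aap3 in 6 of 6 pairs. Neither of these was called (limma adjusted p = 0.0544 and 0.121).

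SECE1 was most like AT2G25640 (r = 0.81) and AT1G11470 (r = 0.80), neither of which was called (limma adjusted p = 0.877 and 0.53). FZL was most like AT1G02020 (r = 0.86) and AT1G69910 (r = 0.77), which had their lowest aap3 value in replicate 3 as FZL did. AT1G02020 also peaked in replicate 4 of both genotypes, at 0.418 in WT and 0.378 in aap3. Among the 5 genes, r was 0.87 for LrgB with CUTA, 0.84 for Cpn60beta3 with LrgB and 0.76 for Cpn60beta3 with CUTA. Over deviations from the group means, which leave out the genotype difference, these became 0.54, 0.52 and 0.21. SECE1 went against Cpn60beta3 on that measure (r = -0.74): the pair mean of SECE1 was highest in replicate 3, at 0.45 on the log2 scale, where that of Cpn60beta3 was lowest, at -0.13.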

How the data were processed

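The deposited table gives 1 intensity per probe and sample, linear from 0 to just under 100, and the highest value of every sample lies just under 100. Results given as without scaling use these values as deposited, with no further scaling. The sources used here do not give the array type, colours, dyes, background correction or normalization behind these intensities. Sample medians ran from 0.476 to 0.536, and 5.21% of values were 0. The number of samples limits the precision.

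Each sample was divided by its median, values below the 5th percentile of all positive ones were raised to it (0.200 times the median, with 9.95% of values at or below it), and log2 values were quantile normalized. This understates changes near the floor. The genotypes were compared in limma 3.58.1 (lmFit, eBayes; R 4.3.3), with p-values adjusted by Benjamini-Hochberg. The fit used 3257 probes, without the 182 that never exceeded the floor and so have no real spread. The fit was tested on simulated data drawn as independent samples, without the pairs and couples seen here, so that test does not cover them.

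Samples of the same number deviated together from their group means (correlations of 0.73 to 0.75 in the 6 pairs), so the numbers were taken to pair them, from the data and not from the labels.

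Genes were assigned to probes by GEO's platform annotation and TAIR10.1 gene identifiers, and 690 of 692 single-gene probes matched a locus. The gene lists and members were chosen with earlier results of these data known. The rule named the members, all measured genes of the lists, genes with chloroplast, plastid or thylakoid in their annotated names, and the 2 probes most like each member. No sequence is shown for these genes. Alternatives covered scaling, floor, filters, pairing, couples, nearby probes, variance model and omitted replicates.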

Additional observations from a re-analysis of the deposited data

Results flagged for a closer look

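Of 22 groups of 6 samples examined for an outlying sample, 1 held one, at a limit set for 1 in 20 independent groups. These groups were not independent, since samples of the same number deviated together, so nothing is read from the count. On the normalized log2 scale FZL was lowest in aap3 replicate 3, at 0.39 against 1.19 to 1.67 in the other aap3 samples, a gap of 0.626 of the group's range. WT replicate 3 was also the lowest of its group, at 0.62 against 1.43 to 1.94, a gap of 0.613 of the range, which stayed just under the limit. In deposited intensity these samples stood at 0.645 and 0.816. Gaps just under the limit of 0.625 were not particular to FZL. The gap was 0.624 for AT5G17630 in aap3 replicate 1 and 0.605 for Cpn60beta4 in aap3 replicate 2, each the lowest of its group.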

How the results depend on the processing

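All settings below were fixed with earlier results of these data known. The mean difference of each of the 5 genes kept its sign under all of them, but which of the 5 genes were called changed with the setting. SECE1 moved to 0.022 without scaling and to 0.012 after nearby probes were subtracted, and CUTA to 0.44 with median scaling. Leaving out a replicate number in both groups gave 0.26 to 0.32 for Cpn60beta3, 0.09 to 0.13 for SECE1, -0.25 to -0.20 for FZL, 0.28 to 0.36 for LrgB and 0.26 to 0.31 for CUTA. The 142 calls (74 higher, 68 lower) became 665 (334 and 331) with the replicate block, 767 (384 and 383) with it as random, and 0 (0 and 0) with couples averaged, where 3 values per group remain. Without scaling 152 were lower. Omitting a replicate gave 47 to 67 calls (25 to 37 higher, 22 to 30 lower), with fewer samples. Of the other plastid genes, 1 was called, AT5G17630, with the replicate block, fixed or random, without scaling (-0.37, limma adjusted p = 0.0189) and after nearby subtraction (-0.28, 0.0273), and 0 in all omissions. The median of these genes ran from -0.13 to 0.0023 over omissions and was -0.21 among probes above the floor in all samples, which leaves out AT4G38490 and CCS. Over omissions AT4G38490 ran from 0.0038 to 0.59 and CHL from -0.33 to -0.11. Cpn60beta4 turned to 0.047 with nearby subtraction and ran from -0.067 to 0.079 over omissions, above 0 without replicate 2 or 5. CCS turned to 0.0056 with median scaling and ran from -0.13 to 0.048, above 0 without replicate 1, 2 or 3. The causes of these changes were not tested. Signal over background was not used here.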
